A study of Mus musculus with 12 samples.

Results

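The 40 genes described here are those of the cell cycle and of DNA replication in a hand-written list, out of 56748 Ensembl genes counted in mouse liver. The genes were picked for their known function, with earlier results of these data known. The list holds 5 G1 cyclins and kinases, 5 G1/S cyclins, kinase and E2F factors, 8 genes of replication licensing, 6 genes of the replication fork and deoxynucleotide supply, 4 S/G2/M cyclins and kinase, 9 genes of the mitotic machinery and 3 growth and stress-response genes.

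Liver RNA was sequenced from mice fasted for 24 h, with 4 livers per genotype. The single KO (SKO) lacked Cpt2 in the liver, and the double KO (DKO) lacked Cpt2 together with Atf3. Cpt2 is the mitochondrial enzyme that completes the import of long-chain fatty acids for oxidation, and Atf3 is a stress-induced transcription factor. The controls, called WT here, carried floxed alleles of Cpt1a, Cpt1b and Cpt2 and not of Atf3, as far as the labels say. By the labels they are therefore not controls for the floxed Atf3 allele. The study describes controls floxed for Atf3 and Cpt2 for its reverse transcription PCR of these KOs. For the sequencing it names only WT mice. Liver KOs came from floxed C57BL6 lines bred to Albumin-Cre mice, a transgene under a promoter active mainly in hepatocytes, and deletion in other liver cells was not measured. Neither the labels nor the methods say whether the WT mice carried Cre, how old the animals of this experiment were or whether they were littermates.

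Total counts were 14710304 to 20030055 per liver. A gene without counts could still have up to 3, which is 0.145 to 0.195 CPM (counts scaled to a TMM-adjusted library total of 1000000), and this limit covers counting error only. Cpt2 had 3658 to 4543 counts in WT livers, 1725 to 3098 in SKO livers and 1876 to 2468 in DKO livers. Atf3 had 17 to 39 counts in WT and 259 to 1056 in SKO livers, and in DKO livers 164, 177, 265 and 5 counts, so its RNA was not below the WT range in 3 of the 4 DKO livers. Counts per exon were not at hand, and reads from the deleted part of either gene cannot be told from the rest. The study describes the sequenced mice as male, but SKO replicate 3 and DKO replicate 4 had 18063 and 20855 counts on Xist, the RNA of the inactive X chromosome, and 2 and 0 on 4 Y-linked genes. The other 10 livers had at most 19 Xist counts and at least 2741 Y-linked counts. Whether these livers came from females or were exchanged with other samples was not tested. Cpt2 had 2094 counts in SKO replicate 3 and 1876 in DKO replicate 4, below every WT liver. Atf3 had 565 counts in SKO replicate 3, inside the range of the SKO livers, and 5 in DKO replicate 4, below every other liver. Beyond these counts, the genotypes of this pair rest on the labels. Results were given with this pair, and many of them also without it. DKO replicate 4 often stood apart from the other DKO livers below. In whole-liver RNA, fewer cells of a type and less RNA per cell cannot be told apart.

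Cells enter the cycle when D-type cyclins with Cdk4 or Cdk6, and then E-type cyclins with Cdk2, inactivate the pocket proteins and release E2F factors, which switch on genes for DNA synthesis. Licensing loads the Mcm helicase at origins, and mitosis then needs cyclin B with Cdk1, the aurora and polo-like kinases and the spindle checkpoint. Adult hepatocytes are mostly quiescent and return to the cycle after loss of liver tissue or injury.

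Levels of different genes were compared per length, as the authors' FPKM (fragments scaled by gene length and library total). In WT livers the highest level was that of Plk3, a stress-responsive polo-like kinase, at 48.3 ± 11.6 FPKM (mean ± SD, n = 4). Tk1, the cytosolic thymidine kinase, followed with 8.99 ± 2.41, Cdk4 with 8.56 ± 0.598 and Pcna, the sliding clamp of DNA polymerases, with 7.24 ± 0.673. The ranges of Tk1, Cdk4 and Pcna overlapped. At the other end were Ccnb1 (cyclin B) with 0.0277 ± 0.0189, Cdc6, a loader of the Mcm helicase, with 0.0188 ± 0.0223 and Bub1, a spindle checkpoint kinase, with 0.00932 ± 0.0186, the last at 0 in 3 of the 4 WT livers. Of the 10 lowest genes, 9 were S/G2/M or mitotic genes and the other was Cdc6.

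Promoter sequences were taken from RefSeq on build GRCm38.p6 and were at hand for 32 of the 40 genes. The 250 bases before each start were searched on both strands for E2F sites (TTTNGCGC, TTTCCCGC or TTTGGCGG), for the cell cycle homology region (CHR, TTTGAA), which the repressor complex DREAM binds, for CCAAT, and for CRE or AP-1 sites (TGACGTCA or TGACTCA), the letters that the Atf3 family can bind. An E2F site stood in 6 of the 32 windows (Cdk2, Cdc6, Mcm5, Mcm6, Mcm7 and Cdk1), against 2.47% of 27025 promoters. A CHR stood in 7 (E2f8, Mcm2, Ccnb2, Cdk1, Mki67, Top2a and Cdc20), against 16.3%. CCAAT stood in 19, against 34.5%, and a CRE or AP-1 site in 2 (Mcm5 and Plk2), against 6.03%. The windows of Tk1 and Birc5, whose RNA fell furthest, held none of these letters. Neither did those of Cdk4, Ung and Plk3, whose RNA rose. The windows of Rrm2 and Aurka, which were lower in SKO livers, held CCAAT boxes, so motifs were found in genes of either direction. The windows of 3 genes whose RNA rose are shown, with the motifs in capitals. They are examples of a CHR with a CCAAT box (E2f8 and Mcm2) and of CCAAT boxes alone (Mcm3). E2f8 (chr7:48881597-48881846, minus strand) has a CHR whose first base lies 20 bases before the start and a CCAAT box 112 bases before it. Mcm2 (chr6:88898781-88899030, minus strand) has the same pair of motifs at 70 and 175 bases, and Mcm3 (chr1:20820313-20820562, minus strand) has CCAAT boxes at 117, 72 and 32 bases and no CHR. A match is a description of letters and not a measured site.
E2f8: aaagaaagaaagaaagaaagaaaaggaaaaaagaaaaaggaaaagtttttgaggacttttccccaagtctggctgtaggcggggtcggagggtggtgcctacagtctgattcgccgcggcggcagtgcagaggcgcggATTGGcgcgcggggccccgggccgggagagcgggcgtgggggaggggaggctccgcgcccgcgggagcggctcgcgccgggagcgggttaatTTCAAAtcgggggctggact
Mcm2: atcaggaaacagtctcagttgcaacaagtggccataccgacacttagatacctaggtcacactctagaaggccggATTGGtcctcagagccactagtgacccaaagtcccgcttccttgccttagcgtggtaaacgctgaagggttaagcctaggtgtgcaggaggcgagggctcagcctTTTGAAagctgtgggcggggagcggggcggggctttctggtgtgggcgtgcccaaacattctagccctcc
Mcm3: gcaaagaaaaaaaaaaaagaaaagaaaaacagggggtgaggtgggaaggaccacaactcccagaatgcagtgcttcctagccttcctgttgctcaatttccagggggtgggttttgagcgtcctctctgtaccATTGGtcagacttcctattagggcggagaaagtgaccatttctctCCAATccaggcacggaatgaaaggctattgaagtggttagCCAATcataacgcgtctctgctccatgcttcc

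Of the 40 genes, 31 had enough counts to be tested between SKO and WT livers. At an adjusted p under 0.05 in edgeR's quasi-likelihood test, 12 differed, while 32.1% of all 14261 genes tested did. Cdk4, E2f8, Mcm2, Mcm3, Mcm7, Ung, Myc and Plk3 were higher in SKO livers (16.7% of all genes), and Rrm2, Tk1, Aurka and Birc5 were lower (15.4%). DESeq2 also gave 12, with 34.1% of all genes. Without SKO replicate 3 there were 13, with Cdt1 added, and 32.5% of all genes. Between DKO and WT livers 33 of the 40 were tested and 6 differed, while 10.5% of all 14448 genes did. Cdk4, E2f8, Ung and Plk3 were higher (6.06% of all genes) and Ccne1 and Birc5 lower (4.39%). DESeq2 gave 12, with Mcm2, Mcm7, Myc, Ccnd3, Ccne2 and Rrm2 added, and 18.2% of all genes. This comparison turned on DKO replicate 4. Without it 15 of the genes differed, 8 higher (18.4% of all genes) and 7 lower (17.5%), and 35.9% of all genes in either direction. Without WT replicate 1 or 2, or DKO replicate 1, 2 or 3, it was 3 (Cdk4, E2f8 and Ung), while 1.79%, 1.63%, 2.73%, 2.54% and 1.95% of all genes differed, in that order. Both comparisons used the same WT livers. Across both, 13 genes passed the threshold at least once.

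**Figure D1:**
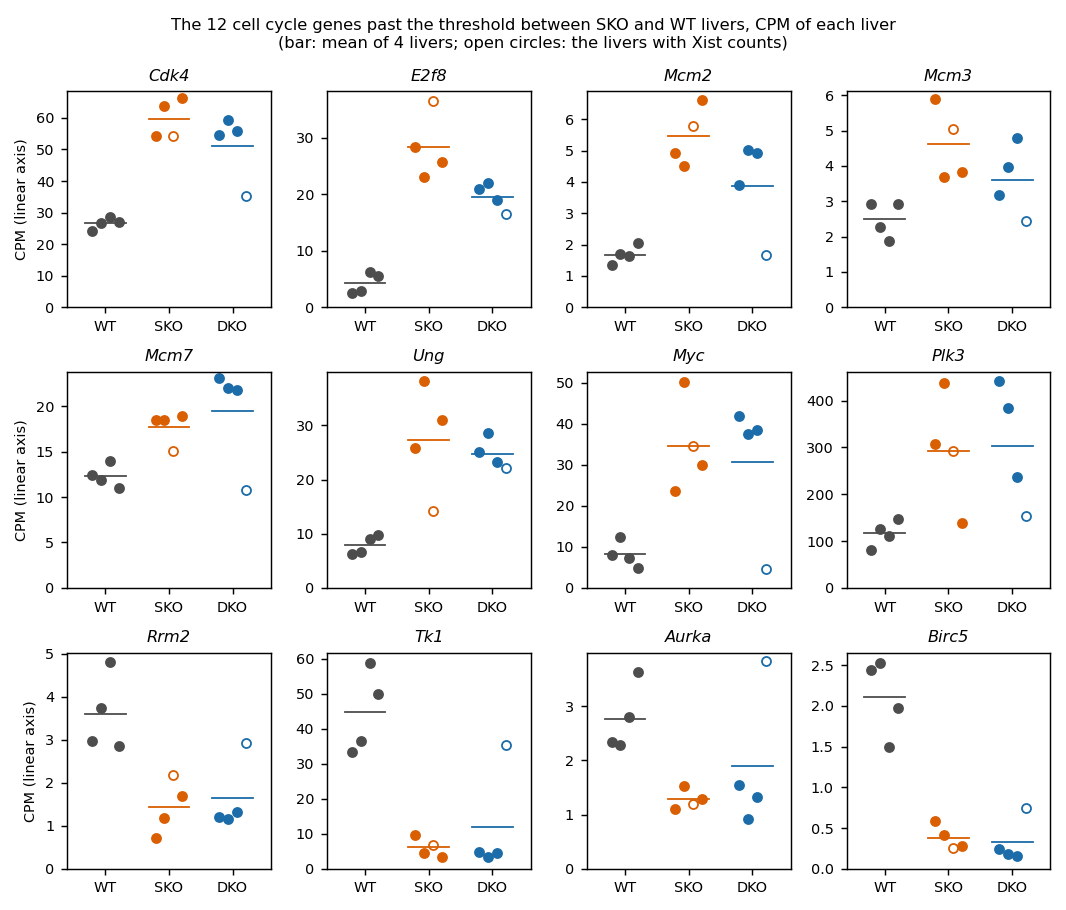
CPM (y axis, linear from 0) of the 12 genes that differed between SKO and WT livers, for each of 4 WT, 4 SKO and 4 DKO livers, with the bar at the group mean and open circles for SKO replicate 3 and DKO replicate 4, the livers with Xist counts. SKO and WT livers overlap in Plk3 alone, and for Mcm2, Mcm3, Mcm7, Myc, Rrm2, Tk1 and Aurka the open DKO circle lies inside the WT range or past it on the far side, while the other 3 DKO livers lie outside the WT range on the SKO side.

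**Figure D2:**
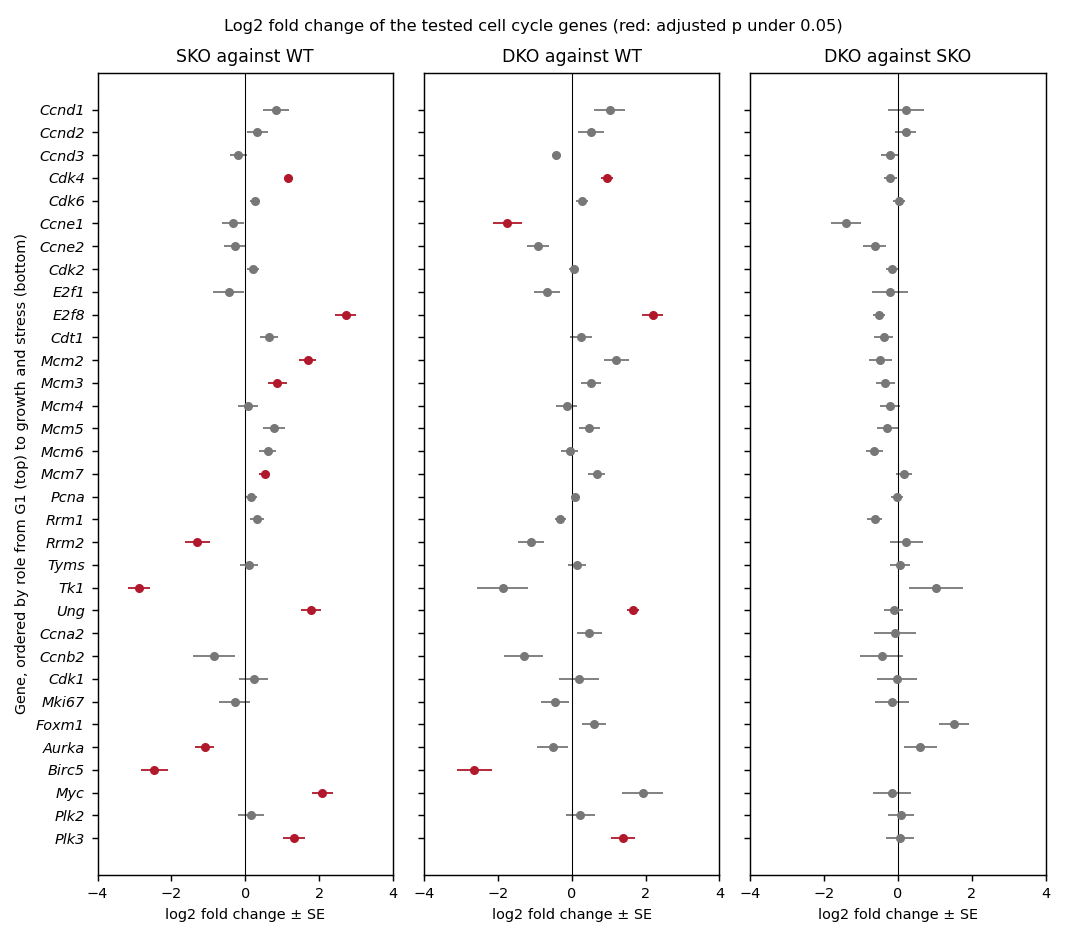
Log2 fold change (x axis) ± SE of the tested genes (rows, in order of role) for SKO against WT, DKO against WT and DKO against SKO, with red points for an adjusted p under 0.05. Red points number 12, 6 and 0 in the 3 panels, and E2f8 and Tk1 lie farthest to the right and left in the first.

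Gene positions are those of the deposited table, which names no build and differs from GENCODE release 21 on GRCm38 for 39 of the 40 genes. Among the G1 genes, Cdk4 rose in both KOs. Cdk4 (ENSMUSG00000006728, chromosome 10 from 126899403 to 126903789) encodes the kinase partner of D-type cyclins. Its CPM was 24.2, 26.6, 28.5 and 26.9 in WT replicates 1 to 4, 54.4, 63.7, 54.1 and 66.3 in SKO and 54.6, 59.2, 55.7 and 35.1 in DKO livers, and neither KO overlapped WT. The log2 fold change from WT, given here and below ± its standard error (SE), was 1.16 ± 0.12 (adjusted p = 3.04e-05) in SKO and 0.96 ± 0.16 (adjusted p = 0.0115) in DKO livers. Tspan31, a tetraspanin gene on the opposite strand, overlaps Cdk4 by 641 bases. Tspan31 had a mean of 234 CPM in WT livers, 339 in SKO livers and 289 in DKO livers, and since no source states whether reads were counted by strand, its part in the Cdk4 counts was not tested.

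With all livers, no D-type cyclin passed the threshold in the edgeR fit of filtered genes. Ccnd1 had 9.25, 7.66, 4.75 and 7.91 CPM in WT livers, 13.2, 10.2, 23.6 and 5.89 in SKO livers and 5.40, 15.8, 12.3 and 26.7 in DKO livers, and in each KO the highest value was in the liver with Xist counts. Its log2 fold change from WT was 0.83 ± 0.36 in SKO (adjusted p = 0.0997) and 0.40 without replicate 3. It passed the threshold without SKO replicate 4, at 1.08 (adjusted p = 0.0223), and without a filter on low counts, at 0.85 (adjusted p = 0.0186). In DKO livers it was 1.03 ± 0.42 (adjusted p = 0.134) and 0.58 without replicate 4. Ccnd3 had 41.0, 47.9, 39.9 and 47.8 CPM in WT, 55.0, 40.9, 38.4 and 21.1 in SKO and 32.3, 29.5, 31.3 and 38.1 in DKO livers. SKO livers overlapped WT, with a log2 fold change of -0.19 ± 0.23 (adjusted p = 0.577). DKO livers did not overlap WT. Their fold change was -0.41 ± 0.12 (adjusted p = 0.0588), and without DKO replicate 4 it was -0.50 (adjusted p = 0.00382). DESeq2 called Ccnd3 lower with all livers (adjusted p = 0.0227). Ccnd2 and Cdk6 changed by 0.33 and 0.26 in SKO and by 0.53 and 0.28 in DKO livers on the log2 scale, none past the threshold. Without replicate 4 Ccnd2 was at 0.27 in DKO livers, and Cdk6 passed there (0.39, adjusted p = 0.0296).

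At the G1/S step, E2f8 had the highest log2 fold change of the tested genes in both KOs with all livers included. E2f8 (ENSMUSG00000046179, chromosome 7 from 48516177 to 48531344) encodes an atypical E2F that represses E2F targets and takes part in hepatocyte polyploidization. The WT livers had 2.50, 2.91, 6.31 and 5.61 CPM, the SKO livers 28.3, 23.0, 36.5 and 25.7 and the DKO livers 20.9, 21.9, 19.0 and 16.5. The 3 groups did not overlap at all, with DKO between WT and SKO. Fold changes were 2.71 ± 0.29 in SKO (adjusted p = 4.16e-05) and 2.19 ± 0.29 in DKO livers (adjusted p = 0.00636) on the log2 scale. The noncoding gene Gm2788 overlaps E2f8 by 3689 bases on the opposite strand and had a mean of 21.7 CPM in WT livers, 68.9 in SKO livers and 62.9 in DKO livers. It was looked up after the values of E2f8 were seen, as was Tspan31.

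The E-type cyclins went the other way or did not pass the threshold. Ccne1 (ENSMUSG00000002068, chromosome 7 from 37797409 to 37806959), the partner of Cdk2, had 2.03, 1.58, 1.17 and 1.98 CPM in WT and 1.82, 1.33, 1.14 and 1.12 in SKO livers, which overlapped. In DKO livers it had 0.531, 0.184, 0.712 and 0.532 CPM, each below every WT and SKO liver, from counts of 3 to 14. The log2 fold change from WT was -0.34 ± 0.30 in SKO (adjusted p = 0.438) and -1.74 ± 0.39 in DKO livers (adjusted p = 0.0269). The DKO call was lost without WT replicate 1, 2 or 4 or without DKO replicate 1, 2 or 3 (adjusted p 0.0581 to 0.0790). Ccne2 had 2.29, 1.90, 3.58 and 2.14 CPM in WT and 1.54, 1.23, 1.58 and 0.852 in DKO livers without overlap (log2 fold change -0.91 ± 0.31, adjusted p = 0.0840, or 0.0354 in DESeq2). In SKO livers it changed by -0.27 ± 0.30 and overlapped WT. Cdk2 stayed between 13.7 and 22.4 CPM in all 12 livers, and E2f1 changed by -0.45 and -0.66 on the log2 scale in SKO and DKO livers without passing the threshold.

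Of the 8 licensing genes, 7 were tested and all 7 fitted values were above 0 in SKO livers, with a median log2 fold change of 0.64 where the median of all tested genes was 0.03. The value of Mcm4 turned below 0 without WT replicate 3 (-0.11) or SKO replicate 4 (-0.02). Only Mcm2, Mcm3 and Mcm7, which encode subunits of the Mcm helicase, passed, while 16.7% of all genes were higher. In DKO livers 5 of the 7 values were above 0, with a median of 0.48 against 0.03 over all genes, and 0 passed, while 6.06% of all genes were higher. Without DKO replicate 4, Mcm2 and Mcm7 passed there, while 18.4% of all genes were higher. Mcm2 (ENSMUSG00000002870, chromosome 6 from 88860456 to 88875762) had 1.35, 1.71, 1.63 and 2.03 CPM in WT livers, 4.93, 4.50, 5.77 and 6.62 in SKO livers and 3.91, 5.02, 4.93 and 1.65 in DKO livers. Every SKO liver lay above every WT liver, as did 3 DKO livers, while DKO replicate 4 lay inside the WT range. Its log2 fold change was 1.69 ± 0.23 in SKO (adjusted p = 0.000218) and 1.21 ± 0.35 in DKO livers (adjusted p = 0.0535), or 1.46 without replicate 4 (adjusted p = 0.000738).

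Mcm7 (ENSMUSG00000029730, chromosome 5 from 138162845 to 138170684) had the highest level per length of the Mcm subunits in WT livers, at 2.90 ± 0.306 FPKM. WT livers had 12.4, 11.8, 14.0 and 10.9 CPM, SKO livers 18.4, 18.4, 15.0 and 18.9 and DKO livers 23.1, 22.0, 21.8 and 10.8. The fold change was small in SKO livers at 0.52 ± 0.14 on the log2 scale (adjusted p = 0.0154), and the call was lost without WT replicate 2 or 4. In DKO livers it was 0.67 ± 0.22 (adjusted p = 0.0805), and 0.87 without replicate 4 (adjusted p = 0.000288), the liver that lay below every WT liver. Cops6, which overlaps Mcm7 by 64 bases on the opposite strand, had 129 CPM in WT and 125 in SKO livers on average. Ap4m1, which overlaps it by 421 bases, also on the opposite strand, averaged 11.3 CPM in the WT livers, 15.6 in the SKO livers and 14.8 in the DKO livers, and its part in the Mcm7 counts was not tested.

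Mcm3 (ENSMUSG00000041859, chromosome 1 from 20873192 to 20890536) had 2.91, 2.28, 1.89 and 2.91 CPM in WT and 5.91, 3.68, 5.04 and 3.82 in SKO livers, a log2 fold change of 0.87 ± 0.25 (adjusted p = 0.0192) that fell short of the threshold without WT replicate 2 or 3 or SKO replicate 1. In DKO livers it had 3.18, 3.98, 4.78 and 2.45 CPM and overlapped WT. Mcm5 and Mcm6 also did not overlap between SKO and WT livers, with 0.77 ± 0.30 and 0.60 ± 0.23, but missed the threshold (adjusted p = 0.0720 and 0.0646). Cdt1, which brings the helicase to origins, changed by 0.64 ± 0.25 (adjusted p = 0.0717), and Mcm4 by 0.08 ± 0.28. Cdc6 was removed by the filter on low counts.

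The genes of the fork and of deoxynucleotide supply split. Pcna did not pass the threshold, with 16.6, 14.6, 18.1 and 17.1 CPM in WT livers, 14.7, 21.9, 16.1 and 20.8 in SKO livers and 19.5, 16.7, 16.4 and 18.0 in DKO livers. Ung rose. Ung (ENSMUSG00000029591, chromosome 5 from 114268447 to 114277384) encodes the glycosylase that removes uracil from DNA. It had 6.19, 6.64, 9.10 and 9.73 CPM in WT livers, 25.9, 38.2, 14.2 and 30.9 in SKO livers and 25.1, 28.6, 23.2 and 22.2 in DKO livers, each KO liver above each WT liver. The log2 fold changes were 1.79 ± 0.28 (adjusted p = 0.000515) and 1.66 ± 0.17 (adjusted p = 0.00337).

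Tk1 fell more than any other tested gene of the list in SKO livers. Tk1 (ENSMUSG00000025574, chromosome 11 from 117706352 to 117716918) encodes the salvage enzyme that phosphorylates thymidine. WT livers had 33.4, 36.5, 58.8 and 49.9 CPM and SKO livers 9.67, 4.60, 6.86 and 3.26, so the groups lay far apart. The first 3 DKO livers lay at the SKO level, while DKO replicate 4 lay inside the WT range (4.77, 3.25, 4.63 and 35.4). The log2 fold change was -2.88 ± 0.31 in SKO livers (adjusted p = 4.18e-05). For DKO it was -1.87 ± 0.70 with all livers (adjusted p = 0.111) and -3.39 without replicate 4 (adjusted p = 2.35e-06).

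Tk1 runs head to head with Afmid, a formamidase gene of tryptophan breakdown on the opposite strand (chromosome 11 from 117716750 to 117730734), and the first 169 bases of the genes overlap. Afmid was looked at after the values of Tk1 were seen. It had 60.2, 70.5, 84.2 and 76.7 CPM in WT, 20.2, 6.45, 10.4 and 5.45 in SKO and 7.62, 6.49, 5.59 and 55.6 in DKO livers. The ratio of Tk1 to Afmid stayed between 0.479 and 0.827 in all 12 livers, so the pair rose and fell together, including the high value of DKO replicate 4. Whether reads of one were counted on the other was not tested, as no source states the strand setting.

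**Figure D3:**
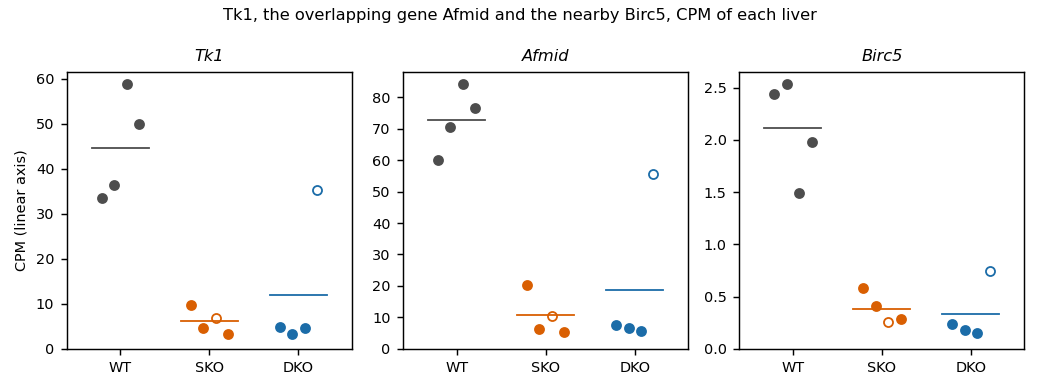
CPM (y axis, linear from 0) of Tk1, of Afmid, which overlaps it on the opposite strand, and of Birc5, which starts 9342 bases past the end of Afmid, in 4 WT, 4 SKO and 4 DKO livers, with the bar at the mean and open circles for the livers with Xist counts. DKO replicate 4 has 35.4 CPM of Tk1 and 55.6 of Afmid, near the WT livers, and 0.745 of Birc5, below them.

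Rrm2 (ENSMUSG00000020649, chromosome 12 from 24758240 to 24764145), the cycle-regulated subunit of ribonucleotide reductase, had 2.96, 3.73, 4.81 and 2.86 CPM in WT and 0.714, 1.18, 2.18 and 1.68 in SKO livers, without overlap (log2 fold change -1.30 ± 0.34, adjusted p = 0.0117). DKO livers had 1.21, 1.16, 1.32 and 2.93 CPM, and the fold change from WT was -1.09 ± 0.35 (adjusted p = 0.0754), or -1.53 without replicate 4 (adjusted p = 0.00171). The other subunit, Rrm1, had 7.95, 8.10, 6.50 and 8.52 CPM in WT livers, 9.22, 7.16, 12.4 and 10.4 in SKO livers and 6.27, 6.55, 5.85 and 6.28 in DKO livers and did not pass in either comparison with WT. Tyms, thymidylate synthase, changed by 0.10 and 0.15 on the log2 scale.

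The S/G2/M and mitotic genes were scarce in every liver. Of these 13 genes, Ccnb1, Top2a, Cdc20, Plk1, Aurkb and Bub1 were removed by the filter on low counts in every comparison. With Cdc6 they had 0 to 12 counts per liver, and 16 of their 84 values were 0. Ccna2 and Foxm1 were removed for SKO against WT. Mki67, the gene of the proliferation marker Ki-67, had 1.82, 1.52, 0.780 and 1.26 CPM in WT livers, 0.909, 1.48, 1.56 and 0.449 in SKO livers and 0.916, 0.490, 1.27 and 1.17 in DKO livers, with overlapping groups (log2 fold change -0.29 ± 0.41 in SKO and -0.46 ± 0.38 in DKO livers). Cdk1, the mitotic kinase, changed by 0.23 ± 0.39 and 0.20 ± 0.55, and Ccnb2 by -0.85 ± 0.56 and -1.30 ± 0.52, without passing. Cdk1 turned to -0.23 in DKO livers without replicate 4. Ccnb2 passed in DKO livers without replicate 4 (-1.62, adjusted p = 0.0442).

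Birc5 and Aurka were lower in SKO livers. Birc5 (ENSMUSG00000017716, chromosome 11 from 117740077 to 117746569) encodes survivin, a subunit of the chromosomal passenger complex. It had 2.44, 2.53, 1.50 and 1.98 CPM in WT livers, 0.584, 0.409, 0.260 and 0.281 in SKO livers and 0.241, 0.184, 0.152 and 0.745 in DKO livers, each KO liver below each WT liver, from 3 to 14 counts in KO livers. The log2 fold change was -2.46 ± 0.36 in SKO (adjusted p = 0.000352) and -2.63 ± 0.48 in DKO livers (adjusted p = 0.0156), and -3.40 without DKO replicate 4 (adjusted p = 0.000101). The DKO call was lost without WT replicate 1 or 2 or DKO replicate 1, 2 or 3 (adjusted p 0.0502 to 0.0557).

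Aurka (ENSMUSG00000027496, chromosome 2 from 172198110 to 172212455) encodes the aurora kinase of the spindle poles. WT livers had 2.34, 2.28, 2.80 and 3.63 CPM and SKO livers 1.10, 1.53, 1.20 and 1.29, without overlap (log2 fold change -1.10 ± 0.27, adjusted p = 0.00835). DKO livers had 1.54, 0.919, 1.32 and 3.83 CPM, with replicate 4 above every WT liver and the rest below. The fold change was -0.51 ± 0.43 with all DKO livers (adjusted p = 0.455) and -1.11 without replicate 4 (adjusted p = 0.0166).

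The summed CPM of all 13 genes ranged over 7.48 to 12.0 for WT, 5.16 to 7.52 for SKO and 4.84 to 10.4 for DKO livers, with the highest DKO value in replicate 4. Its medians were 10.5, 5.56 and 5.95 in that order, and WT and SKO livers overlapped only by WT replicate 3 (7.48) and SKO replicate 2 (7.52). Without Aurka and Birc5, the other 11 genes summed to 3.19 to 6.43 for WT, 3.59 to 5.58 for SKO and 3.74 to 5.80 for DKO livers. Aurka and Birc5 were left out after being called lower in the same SKO livers, so the smaller sum is no separate test. The groups overlapped in both sums.

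**Figure D4:**
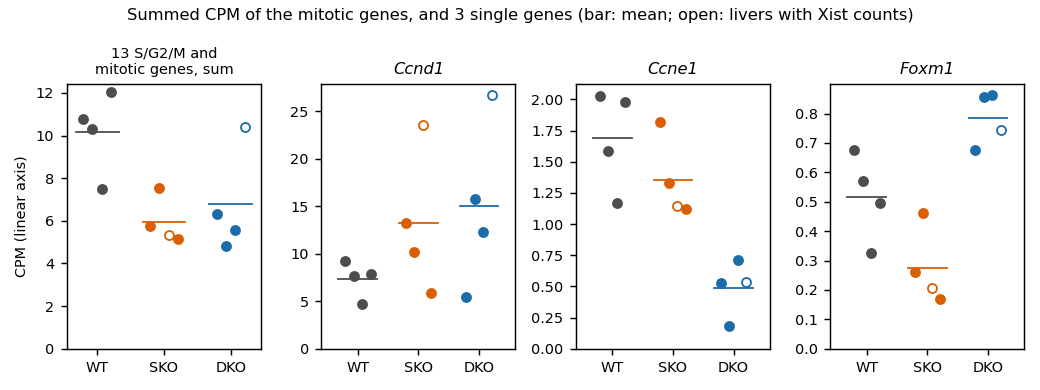
CPM (y axis, linear from 0) summed over the 13 S/G2/M and mitotic genes, and CPM of Ccnd1, Ccne1 and Foxm1, in 4 WT, 4 SKO and 4 DKO livers, with the bar at the mean and open circles for the livers with Xist counts. The sum reaches 12.0 in WT and 7.52 in SKO livers, Ccnd1 is highest in the open circles of both KOs, and for Ccne1 the DKO livers lie below all others.

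The 3 growth and stress-response genes all had fitted values above 0 in both KOs. That of Plk2 turned below 0 in 2 alternative fits for SKO (lowest -0.08) and in 1 for DKO livers (-0.07). Myc (ENSMUSG00000022346, chromosome 15 from 61857240 to 61862223), a growth-promoting transcription factor, had 8.01, 12.5, 7.28 and 4.89 CPM in WT livers, 23.7, 50.3, 34.7 and 30.0 in SKO livers and 41.8, 37.4, 38.6 and 4.58 in DKO livers. Each SKO liver and 3 DKO livers lay above every WT liver, and DKO replicate 4 lay below every WT liver. The log2 fold change was 2.09 ± 0.29 in SKO (adjusted p = 0.000237) and 1.92 ± 0.56 in DKO livers (adjusted p = 0.0584), or 2.28 without replicate 4 (adjusted p = 3.23e-05).

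Plk3 (ENSMUSG00000028680, chromosome 4 from 116985852 to 116991160) rose to 307, 437, 292 and 138 CPM in SKO and 443, 384, 236 and 154 in DKO livers from 81.8, 127, 111 and 148 in WT. SKO replicate 4 lay inside the WT range, and DKO replicate 4 lay just above it. The log2 fold change was 1.33 ± 0.29 (adjusted p = 0.00498) and 1.39 ± 0.32 (adjusted p = 0.0283), and the DKO call was lost without any 1 of the 4 WT livers or of DKO replicates 1 to 3 (adjusted p 0.0606 to 0.0894). Plk2, a related kinase, changed by 0.15 ± 0.35 and 0.24 ± 0.38.

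Whether loss of Atf3 altered these genes on top of loss of Cpt2 was asked by comparing DKO with SKO livers. Of 32 genes tested, 0 passed the threshold in edgeR and 0 in DESeq2, and of all 14363 genes 3 did (0.0209%) in edgeR and 97 (0.675%) in DESeq2. Without SKO replicate 3 and DKO replicate 4 again 0 passed, and 0.146% of all genes. That fit left out the only DKO liver with Atf3 RNA below the WT range. In DKO replicates 1 to 3 Atf3 had 7.91, 10.8 and 13.5 CPM. WT livers had 1.11 to 2.14 CPM of it and SKO livers 14.5 to 54.0. With all livers, 5 of the 32 genes had an unadjusted p under 0.05 in edgeR, while 6.49% of all genes did. They were Ccne1, E2f8, Rrm1 and Mcm6, lower in DKO, and Foxm1, higher. These 5 were picked by this p-value in the same livers. That none of their DKO values overlapped the SKO range is therefore no separate support.

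Ccne1 differed by -1.41 ± 0.41 on the log2 scale (adjusted p = 0.503) and Foxm1, a transcription factor for mitotic genes, by 1.51 ± 0.40 (adjusted p = 0.454), with 0.676, 0.570, 0.325 and 0.495 CPM in WT livers, 0.260, 0.460, 0.208 and 0.168 in SKO livers and 0.675, 0.858, 0.864 and 0.745 in DKO livers. The Foxm1 values rest on 3 to 17 counts per liver. E2f8 differed by -0.52 ± 0.17 (adjusted p = 0.615), Rrm1 by -0.63 ± 0.20 (0.583) and Mcm6 by -0.65 ± 0.23 (0.663). For Mcm6 the SKO livers had 4.28, 6.04, 4.26 and 4.55 CPM and the DKO livers 2.89, 2.70, 2.80 and 3.62, which is the WT level of 3.59, 3.10, 2.28 and 3.57. Cdk4, Ung, Myc and Plk3 differed between the KOs by -0.20 ± 0.17, -0.12 ± 0.25, -0.17 ± 0.51 and 0.06 ± 0.38, and Tk1 by 1.03 ± 0.74. Without the livers with Xist counts Myc and Plk3 differed by 0.19 and 0.27, and Tk1 by -0.45. The SE of these values leaves room for sizeable differences, so they do not show that the KOs were alike.

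Other genes of the same processes moved in both directions, and their shares are to be read against the 32.1% of all genes that differed in SKO and the 10.5% in DKO livers. Of 52 other replication genes, 44 were tested and 6 were higher and 1 lower in SKO than in WT livers, and 2 were higher and 2 lower in DKO livers, or 15.9% and 9.09% of those tested. Lig1, the ligase that joins Okazaki fragments, rose by 1.43 ± 0.25 and 1.05 ± 0.25 on the log2 scale, and Dna2, a nuclease of fragment processing, by 0.50 ± 0.14 and 0.69 ± 0.11. Mcm10, which activates the helicase, fell from 73.2 ± 6.14 CPM (SD, n = 4) in WT to 27.2 ± 12.7 in SKO and 20.2 ± 8.61 in DKO livers. The median log2 fold change of the list was 0.09 in SKO and -0.07 in DKO livers, against 0.03 over all genes in both.

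Of 68 other mitosis genes, 34 were tested in each comparison with WT. In SKO livers 6 were higher and 4 lower, and in DKO livers 1 and 3, or 29.4% and 11.8%, close to the shares of all genes. Wee1, the kinase that holds Cdk1 inactive, had 11.5, 11.0, 21.1 and 19.5 CPM in WT livers, 37.6, 37.8, 31.2 and 49.8 in SKO livers and 23.2, 10.8, 18.5 and 5.80 in DKO livers, and changed on the log2 scale by 1.31 ± 0.23 in SKO (adjusted p = 0.00115) and -0.10 ± 0.40 in DKO livers. Ccnf (cyclin F), which marks proteins for breakdown, changed by -1.29 ± 0.24 in SKO (adjusted p = 0.00176) and 0.09 ± 0.25 in DKO livers. Between DKO and SKO livers the difference was -1.40 ± 0.35 for Wee1 (adjusted p = 0.430) and 1.39 ± 0.26 for Ccnf (adjusted p = 0.226). Spc24, a kinetochore subunit, was lower in both KOs (-1.94 ± 0.23 and -1.67 ± 0.34), as was the centromere chaperone Hjurp (-0.82 ± 0.14 and -0.79 ± 0.21).

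Among 8 tested inhibitors of cyclin-dependent kinases and pocket proteins, 1 was higher and 1 lower in SKO livers and 0 and 1 in DKO livers, or 25.0% and 12.5%. Cdkn1a, the p53-induced inhibitor p21, had 14.0, 16.2, 25.9 and 5.44 CPM in WT livers, 31.7, 50.0, 99.8 and 64.3 in SKO livers and 133, 159, 71.7 and 8.84 in DKO livers. On the log2 scale it changed by 2.00 ± 0.42 in SKO (adjusted p = 0.00367) and 2.61 ± 0.74 in DKO livers (adjusted p = 0.0531), where replicate 4 alone lay in the WT range. Rbl2, the pocket protein p130 of quiescent cells, fell in both, by 1.01 and 0.94 on the log2 scale. Of 13 tested E2F, DREAM and Myb genes, 2 were higher (Tfdp1 and E2f6) and 2 lower (Tfdp2 and Lin52) in SKO livers, and 0 and 3 in DKO livers (Tfdp2, Lin52 and Lin9), or 30.8% and 23.1%. Max, the partner of Myc, changed by 0.45 ± 0.16 in SKO (adjusted p = 0.0497) and 0.49 ± 0.15 in DKO livers, and in the Myc network of 10 genes Mlx was lower in both KOs and Mycl in SKO livers. Without SKO replicate 3 Max did not pass and Mnt was the higher gene. With all livers 37.5% and 11.1% of those tested differed.

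Of 17 tested genes of deoxynucleotide and folate supply, 1 was higher (Cad, the first enzyme of pyrimidine synthesis) and 3 were lower in SKO livers, or 23.5%, and 0 and 0 in DKO livers, though 7 passed there without replicate 4. Dut, which destroys dUTP, had 6.91, 7.21, 6.18 and 6.27 CPM in WT livers, 2.53, 2.71, 2.39 and 2.36 in SKO livers and 2.41, 2.45, 4.73 and 8.52 in DKO livers, and fell in SKO livers by 1.41 on the log2 scale (adjusted p = 0.000169). DKO replicate 4 lay above every WT liver. Shmt1, a folate enzyme, also fell in SKO livers (-0.95 ± 0.16).

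Of 13 tested genes of uracil and base excision repair, 3 were higher (Tdg, Apex1 and Neil2) and 1 lower (Nthl1) in SKO livers, and 1 and 0 in DKO livers (Tdg), or 30.8% and 7.69%, near or below the shares of all genes. Tdg, the thymine DNA glycosylase, had 14.2, 11.3, 3.06 and 3.63 CPM in WT livers, 29.5, 30.8, 30.3 and 35.5 in SKO livers and 29.9, 32.5, 26.8 and 17.9 in DKO livers, with log2 fold changes of 1.96 ± 0.40 and 1.74 ± 0.46.

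Without SKO replicate 3 the higher and lower genes of SKO livers numbered 6 and 1 for replication, 6 and 4 for mitosis, 1 and 1 for the inhibitors, 3 and 2 for E2F and DREAM, 1 and 3 for the Myc network, 1 and 3 for deoxynucleotides and 3 and 1 for repair. Without DKO replicate 4 those of DKO livers numbered 6 and 5, 4 and 4, 1 and 3, 3 and 4, 2 and 3, 2 and 5, and 4 and 1 in the same order. All genes moved as well, to 35.9% in DKO livers, and the shares of these lists there were 25.0%, 23.5%, 50.0%, 53.8%, 50.0%, 41.2% and 38.5%. In the comparison of DKO with SKO livers 0 genes of these 7 lists passed the threshold in edgeR, with or without this pair of livers.

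Some markers of liver cell types also differed. Over 8 lists, 12 of 58 tested markers did so in SKO livers (20.7%, against 32.1% of all genes) and 4 of 58 in DKO livers (6.90%, against 10.5%). Of 9 hepatocyte markers, 0 were higher and 4 lower in SKO livers (Alb, Ttr, Serpina1a and Fah), and their summed CPM was 74369 to 92554 in WT, 40592 to 70504 in SKO, 41904 to 50931 in DKO replicates 1 to 3 and 94289 in DKO replicate 4. Of 6 tested cholangiocyte markers, 2 were lower in SKO livers (Sox9 and Spp1), with sums of 43.1 to 51.9 CPM for WT, 21.3 to 27.8 for SKO and 23.0 to 44.9 for DKO livers. Of the macrophage markers, Cd68 rose in SKO livers (2.28 ± 0.28) and the other 10 tested did not pass, with sums of 272 to 534 CPM in WT livers, 253 to 621 in SKO livers and 162 to 560 in DKO livers. Of 11 stellate cell and fibroblast markers Dcn alone rose in SKO livers, and 0 of 10 endothelial markers passed. Of 7 tested erythroid markers, 2 globin genes were higher and Alas2 and Klf1 lower in SKO livers. Without SKO replicate 3, 4 globin genes were higher, 5 hepatocyte and 3 cholangiocyte markers were lower, and Marco was lower beside the higher Cd68, while 32.5% of all genes differed. Lymphocyte markers summed to 6.61 to 23.0 CPM and neutrophil markers to 2.19 to 5.25 CPM in all livers, and Ly6g and Mpo had 0 counts in WT and DKO livers. No lymphocyte or neutrophil marker passed. Between DKO and WT livers Sox9 and Alas2 were lower, 1 hepatocyte marker was lower (Serpina1a), or 5 without replicate 4, and 1 of 12 macrophage markers was lower (Marco), or 9 with 1 higher without replicate 4, where 35.9% of all genes differed. The part of these differences in the results above was not tested.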

How the data were processed

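Liver RNA of 12 mice fasted for 24 h was sequenced, with 4 livers per genotype, grouped as the labels give them. The authors deposited raw counts per Ensembl gene, without normalization, gene lengths, and FPKM, which the authors scaled by length and by a library total. The submitters' processing notes name HISAT2 and the builds GRCm38 and mm10, without versions. The counting program, annotation release and strand setting are not given in the sources used here. Tables of the authors' own comparisons hold fold changes and p-values and were not used.

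Counts were tested with edgeR 4.0.16 in R 4.3.3 (filterByExpr, TMM within the 8 livers compared, glmQLFit and glmQLFTest). The two-sided p-values were adjusted over every gene tested (Benjamini-Hochberg), with a threshold of 0.05. CPM for display used TMM over all 12 livers, and FPKM served only to set levels of different genes side by side. Alternatives were DESeq2 1.42.0, RLE normalization, no filter, at least 1 CPM in 4 livers, a fit of all 12 livers, the replicate number as a block, leaving out each liver, and only livers with Y-linked counts. The procedure was tested on simulated data. Motifs were sought in 250 bases before RefSeq starts.

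Members and lists were chosen with earlier results of these data known. Any of the 40 genes could be named, and from each of the 7 lists of related genes and 8 of cell markers the 4 genes with the smallest p-values per comparison, any gene among 5 or fewer counted, and genes that check the labels. Afmid, Gm2788, Tspan31, Cops6, Ap4m1, LTO1 and Bysl were added after values were seen. A gene of the deoxynucleotide and folate list is counted with it but not reported here. Nothing says that the livers of a genotype are more than separate samples, so p-values measure the spread between these samples.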

Additional observations from a re-analysis of the deposited data

Results flagged for a closer look

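Of 120 groups of 4 livers (40 genes in 3 genotypes), 13 had a highest or lowest value that stood apart from the other 3 by Dixon's criterion, where chance gives about 6, and 6 of the 13 were in DKO replicate 4. In that liver Tk1 had 35.4 CPM against 3.25 to 4.77 in the other DKO livers. Myc had 4.58 CPM there, against 37.4 to 41.8. Mcm7 had 10.8 CPM against 21.8 to 23.1, and Cdt1 had 2.61 against 5.16 to 5.57. Rrm2 had 2.93 CPM against 1.16 to 1.32, and Birc5 had 0.745 against 0.152 to 0.241.

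In SKO replicate 3 Mcm7 had 15.0 CPM against 18.4 to 18.9 in the other SKO livers, Ccnb2 had 0.104 against 0.730 to 0.844, and Bub1 had 0.156 against 0.0512 to 0.0649. Mcm6 had 6.04 CPM in SKO replicate 2 against 4.26 to 4.55. Ccnd2 had 4.10 CPM in SKO replicate 4 against 5.71 to 5.78. In WT livers, Cdk6 had 41.9 CPM in replicate 4 against 31.9 to 33.4, and Bub1 had 0.156 CPM in replicate 1, with 0 in the others. The values of Bub1 and Ccnb2 in these livers rest on few counts.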

How the results depend on the processing

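Between SKO and WT livers, 10 of the 12 genes kept their direction and stayed past the threshold in all 14 distinct alternatives, and Mcm3 and Mcm7 were lost in 3 each. The count of genes called among the 40 ranged from 10 to 13. Between DKO and WT livers Cdk4, E2f8 and Ung stayed in all alternatives, while Ccne1 was lost in 7, Birc5 in 5 and Plk3 in 8. There the number called among the 40 was 6, against 12 with DESeq2, 15 with only livers with Y-linked counts (the same fit as without DKO replicate 4) and 3 to 15 when 1 liver was left out. Over all genes it was 1510, against 2635 with DESeq2, 5253 with only livers with Y-linked counts and 244 to 5253 with 1 liver left out. Over all genes the lowest value came without WT replicate 2. Among the 40 it came without WT replicate 1 or 2 or DKO replicate 1, 2 or 3. Both counts were highest without DKO replicate 4. Between DKO and SKO livers the number over all genes was 3, against 97 with DESeq2, 35 without a filter, 21 with only livers with Y-linked counts and 0 to 15 with 1 liver left out, and among the 40 genes it was 0 throughout. Of genes not called, 2, 10 and 0 passed the threshold in some alternative in the order of these comparisons, and 4, 4 and 16 changed sign in one. No called gene changed sign. Causes were not tested.

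Replicate numbers were shared between genotypes, but deviations of same-numbered livers did not correlate above 0.1 in every pair (r from -0.39 to 0.13), so the numbers were not taken as pairs. With the replicate number as a block, 4111 genes differed between SKO and WT livers, 13 of them among the 40. Between DKO and WT livers the block gave 691 genes and 5 of the 40 (Cdk4, E2f8, Ung, Birc5 and Tk1, without Ccne1 and Plk3), and between DKO and SKO livers 0 and 0.

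Low counts limit the analysis, since 7 of the 40 (Cdc6 and 6 S/G2/M or mitotic genes) had at most 12 counts in any liver and were removed by the low-count filter (without it, 0 of the 7 passed), and Birc5, Ccne1 and Foxm1 were called or not on 3 to 47 counts per liver.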
